A study of Homo sapiens with 6 samples.

Results

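Lectins, Siglecs, leukocyte immunoglobulin-like receptors (LILR) and Fc receptors are the surface molecules with which myeloid cells read sugars, HLA molecules and antibodies, and 44 genes of these and neighbouring families were followed here in a myeloid leukaemia line. The genes were listed by the names of their families. Each was represented by those probe sets that the array annotation gives to that gene alone, and among them by the one whose mean over the 6 arrays was highest. By this rule 41 of the 44 genes had a value, among 19775 genes in all. CD33, LILRB4 and CD300E were not analysed here.

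The cells were MOLM-14, a long-established line from human acute myeloid leukaemia that carries an MLL-AF9 fusion, so the wells are samples of 1 line. In 3 wells they were kept for 24 h in 10 nM cortistatin A (CA), a sponge-derived steroidal compound that inhibits the Mediator-associated kinases, CDK8 and its paralog CDK19, and in 3 wells for 24 h in the vehicle DMSO. RNA of each well went to 1 Affymetrix U133 Plus array, and the values are log2 intensities after RMA, which normalises arrays to a common distribution. The comparison asks which of these receptor transcripts change when the Mediator kinases are inhibited.

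Many of these receptors work in pairs of opposite effect. Inhibitory members such as the LILRB proteins, LAIR1, CD300A, SIRPA, FCGR2B and most Siglecs carry tyrosine motifs that recruit the phosphatases encoded by PTPN6, PTPN11 and INPP5D. Activating members such as the LILRA proteins and CLEC5A lack such motifs and signal through small adaptors. FCER1G and TYROBP engage the kinase SYK, and HCST engages phosphoinositide kinase. Monocytes and their leukaemic counterparts carry many of both kinds, and several are used as surface markers or antibody targets in acute myeloid leukaemia.

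After CA, 3 of the 41 measured genes were higher and 4 were lower by limma at an adjusted p under 0.05. Over all 19775 genes 6.64% were called higher and 4.49% lower, against 7.32% and 9.76% of the 41. The share called higher was near that of all genes, and both counts are small. In RNA of whole wells, fewer cells that carry a transcript and less of it per cell cannot be told apart. MS4A6A, a membrane protein of monocytes and macrophages, rose 1.61-fold, while the activating receptor LILRA2 fell 1.79-fold, MS4A3, a gene of granulocyte and monocyte progenitors, fell 1.54-fold, and FCGRT, the neonatal Fc receptor, fell 1.31-fold. Smaller changes were called for the inhibitory receptors LAIR1 and CD300A, which rose, and for CD4, which fell. Among the 41 genes the median log2 change was -0.06, against -0.00 over all genes. The CA and DMSO values did not overlap in 15 of the 41 (36.6%), against 31.8% of all genes. All CA values lay below the DMSO values in 11 of the 41, against 15.2% of all genes. They all lay above in 4 of the 41, against 16.6% of all genes.

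The promoters of the 3 members with the largest changes are shown so that the letters searched for can be seen in place. Each is a RefSeq window of 300 bases around the annotated start, most of it before the start, in build GRCh38.p14. They lie at chr11:60184617-60184916 on the minus strand (MS4A6A), chr19:54573540-54573839 on the plus strand (LILRA2) and chr11:60056415-60056714 on the plus strand (MS4A3). Capitals mark letters that match a searched motif.
MS4A6A: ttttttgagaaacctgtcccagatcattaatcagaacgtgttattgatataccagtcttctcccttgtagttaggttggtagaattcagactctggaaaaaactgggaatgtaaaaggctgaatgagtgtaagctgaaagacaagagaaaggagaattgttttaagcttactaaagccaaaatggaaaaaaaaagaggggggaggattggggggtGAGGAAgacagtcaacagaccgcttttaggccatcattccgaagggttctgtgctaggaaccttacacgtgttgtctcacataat
LILRA2: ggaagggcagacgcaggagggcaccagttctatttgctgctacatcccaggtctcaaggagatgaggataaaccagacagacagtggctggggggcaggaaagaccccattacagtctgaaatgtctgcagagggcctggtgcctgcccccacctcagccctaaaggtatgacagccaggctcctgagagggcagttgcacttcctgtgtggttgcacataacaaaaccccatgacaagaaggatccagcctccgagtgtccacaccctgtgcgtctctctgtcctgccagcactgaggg
MS4A3: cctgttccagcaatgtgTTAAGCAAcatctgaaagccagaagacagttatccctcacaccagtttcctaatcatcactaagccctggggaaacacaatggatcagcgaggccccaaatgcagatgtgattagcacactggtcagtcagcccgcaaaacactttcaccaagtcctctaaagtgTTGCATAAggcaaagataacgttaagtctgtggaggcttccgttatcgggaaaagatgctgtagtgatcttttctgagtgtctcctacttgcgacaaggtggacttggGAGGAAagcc
The motifs searched on both strands were GAGGAA, the core of sites of the myeloid factor PU.1, TTGCNNAA for C/EBP factors, GAAA followed by NN and GAAA for the interferon-stimulated response element and TTCNNNGAA for STAT factors. GAGGAA overlapped none of the others in these 3 windows. A window was at hand for 27 of the 41 measured genes, and 17 of the 27 (63.0%) held GAGGAA, against 27.6% of 27305 promoter windows of the same length. The C/EBP letters were in 3 of 27 (11.1%, against 10.6% of all), the STAT letters in 2 (7.41%, against 7.88%) and the response element letters in 1 (3.70%, against 3.65%). MS4A6A held GAGGAA 35 bases before its start. MS4A3 held it after its start and had C/EBP letters 233 and 68 bases before the start. LILRA2 held none of the 4 patterns in this window. Of the 6 called members with a window, 4 held GAGGAA, namely LAIR1, FCGRT, MS4A6A and MS4A3. A match is a description of letters and not evidence that a factor binds there.

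In DMSO, 23 of the 41 members were above 5.62, the mean of the DMSO arrays' medians over all probe sets, and 18 were at or below it. The share of all genes above this line was 60.8%. Each gene stands by its brightest probe set, while the line is over all probe sets, also those that name no gene. The value table has no detection calls, so this line is only a guide to which transcripts gave clear signal. Levels of different probe sets cannot be ranked against each other, since probes differ in affinity. The members closest to the line were LILRB2, at 5.76 ± 0.13 in DMSO (SD, n = 3), just above it, and SIGLEC6, at 5.57 ± 0.06, just below it. All 7 called members were among the 23. Of all genes above the line, 10.0% were called higher and 6.95% lower, against 3 and 4 of these 23. Of the 18 dimmer members, 0 were called by limma and 1, CLEC12A, had an unadjusted p under 0.05. Of all genes at or below the line, 2.10% were called in either direction, and of all genes above it 17.0%.

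**Figure D1:**
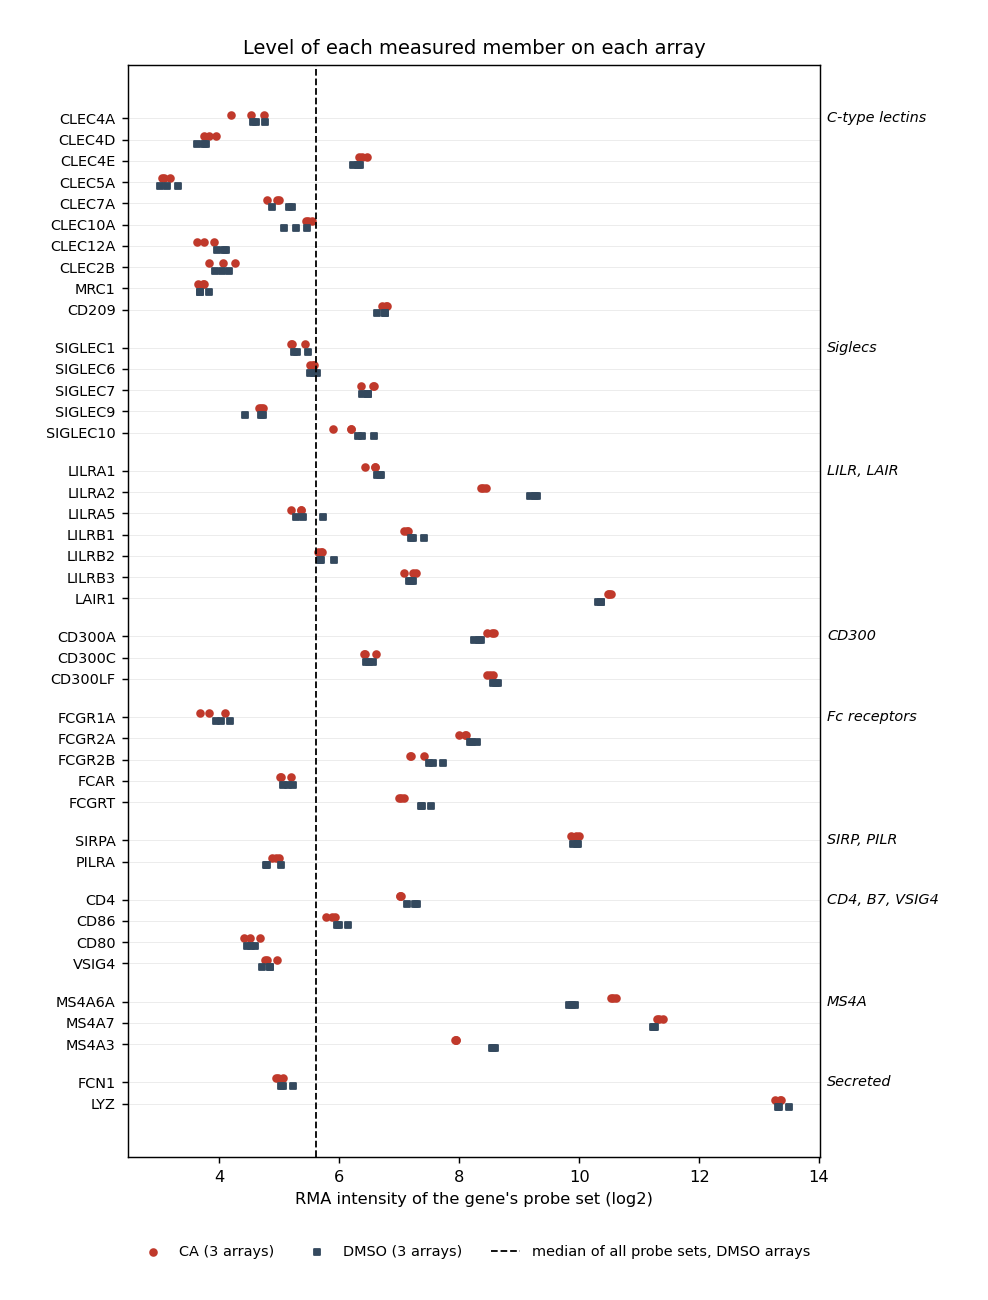
RMA intensity (log2, horizontal axis) of the probe set that stands for each of the 41 measured members, with 3 CA arrays as red circles above 3 DMSO arrays as dark squares in each row, and the median of all probe sets on the DMSO arrays (5.62) as a dashed line. LILRA2, MS4A3, FCGRT and CD4 have all CA values below the DMSO values, MS4A6A, LAIR1 and CD300A all above, and most C-type lectins lie left of the line.

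Markers of the labelled cell type were above the line in part. For the counts that follow, 60.8% of all genes were above this line. Of 11 measured markers of myeloid leukaemia cells, 8 were above it in DMSO, among them the receptor FLT3 at 11.72 in CA and 11.69 in DMSO. The monocyte co-receptor CD14 was at 4.71 in CA and 4.36 in DMSO, the aminopeptidase ANPEP (CD13) at 4.54 and 4.29, and the factor SPI1 (PU.1) at 5.59 and 5.51, all below it. In this list ITGAM (-0.45) and CSF1R (-0.39) fell and the factor MEIS1 rose (0.25). Of markers of other cells, 2 of 9 for T and NK cells, 2 of 5 for B cells, 3 of 6 for erythroid cells and megakaryocytes, 4 of 7 for mature neutrophils and mast cells and 1 of 6 for epithelium and stroma were above the line. In the T and NK list limma called 1 gene, with 2 at an unadjusted p under 0.05. NCAM1 (CD56) was at 10.70 in CA and 10.30 in DMSO and rose (0.41), while CD3E was at 4.77 and 4.72. CD3D was at 5.65 in CA and 5.37 in DMSO, with all CA values above, and was not called (0.28, adjusted p = 0.0574). In the other 4 lists limma called 0 genes, with 0, 0, 2 and 1 at an unadjusted p under 0.05. A sign of RNA integrity, the excess of the 3' over the 5' control probe set of GAPDH on the log2 scale, was 0.48 ± 0.05 in CA and 0.38 ± 0.03 in DMSO (SD, n = 3 each; exact permutation p = 0.1, 2-sided, the smallest that 3 against 3 arrays can give). For ACTB the same measure was 2.381 ± 0.071 in CA and 2.273 ± 0.125 in DMSO (SD, n = 3 each; exact permutation p = 0.3, 2-sided). The part of RNA integrity in the changes described here was not tested.

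The MS4A genes encode small proteins that cross the membrane several times, some of them partners of immune receptors, and they lie in a row on chromosome 11. MS4A6A had log2 values of 10.62, 10.53 and 10.57 in the CA arrays, against 9.89, 9.83 and 9.93 in the DMSO arrays. The groups were far apart relative to their spread, with a log2 change of 0.69 (SE 0.05, adjusted p = 0.000342). Of its 7 probe sets 5 were called higher in a test over all probe sets, 1 was uncalled at 0.04 and the dimmest was at -0.12. The representative ends in _x_at, a kind of probe set that can bind transcripts of several genes, but 2 probe sets of the plain kind were called as well, at 0.65 and 0.54. The uncalled one at 0.04 was also of the plain kind, at 7.27 in CA and 7.24 in DMSO.

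MS4A3 went the other way, with 7.95, 7.92 and 7.95 in CA, against 8.59, 8.54 and 8.56 in DMSO. Both of its probe sets were called lower, and the log2 change of the representative was -0.62 (SE 0.04, adjusted p = 0.000181). MS4A7, a gene of mature macrophages, was at 11.40, 11.30 and 11.33 in CA, against 11.26, 11.25 and 11.24 in DMSO. Its CA values were all higher, but the log2 change of 0.09 was not called (95% confidence interval -0.01 to 0.19, adjusted p = 0.218).

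A neighbour of these genes that is not among the 44, MS4A4A, also a macrophage gene, showed the largest change of the family. It was at 9.99, 9.97 and 10.00 in CA, against 8.36, 8.50 and 8.37 in DMSO, a rise of 2.98-fold (log2 change 1.58, SE 0.05, adjusted p = 2.84e-05). Each of its 3 probe sets was called higher, at 1.58, 1.40 and 0.63. In RefSeq order MS4A6A and MS4A4A are followed by MS4A6E and MS4A7, while MS4A3 stands at the end of the row. MS4A6E, chosen after its value was seen, was dim, at 3.55 ± 0.02 in CA and 3.30 ± 0.04 in DMSO (SD, n = 3 each), and was called higher (0.25, adjusted p = 0.0108). The B cell gene MS4A1 was at 4.22 in CA and 4.14 in DMSO, below the array median, and was not called (0.07).

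**Figure D2:**
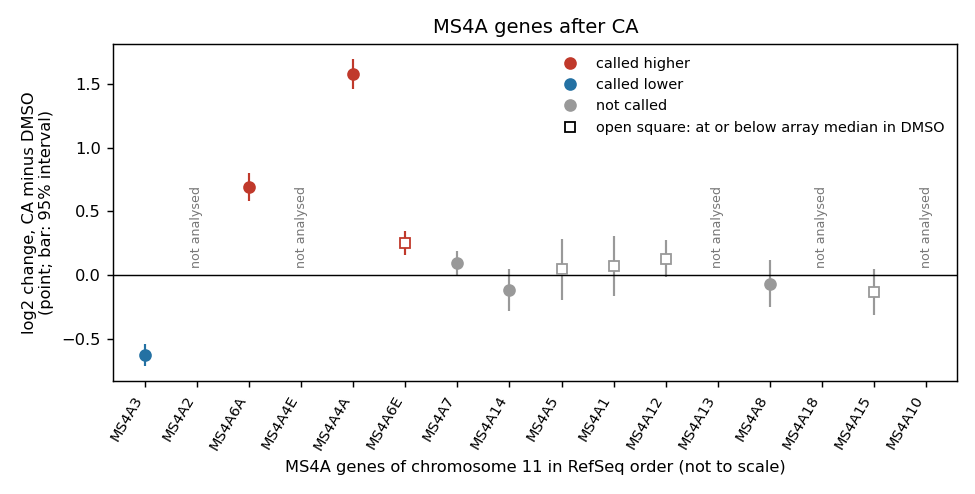
Log2 change, CA minus DMSO (vertical axis, point with 95% confidence interval), of MS4A genes of chromosome 11 in their RefSeq order along the horizontal axis, which is not to scale. MS4A4A (1.58) and MS4A6A (0.69) were called higher, MS4A3 (-0.62) lower, and MS4A6E (0.25) was called higher from a level below the array median, shown by an open square.

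The LILR family is encoded on chromosome 19 beside LAIR1 and FCAR, and its genes are so alike that array probes can be shared. LILRA2, an activating receptor that recognises cleaved antibody, was at 8.36, 8.40 and 8.44 in CA, against 9.30, 9.26 and 9.17 in DMSO. The groups were far apart relative to their spread, and the log2 change of -0.84 (SE 0.05, adjusted p = 0.000181) was the largest in size among the 41. All 4 of its probe sets were called lower, the other 3 at -0.42, -0.49 and -0.48. Those 3 end in _x_at or _s_at, kinds that can bind transcripts of several genes. Only the representative is of the plain kind. The activating members LILRA1 (-0.13, 95% confidence interval -0.26 to 0.01) and LILRA5 (-0.16, -0.44 to 0.12) were not called, and LILRA5 lay below the array median. Their direction depended on the probe set. The dimmer LILRA1 probe set was at 0.19, and of the 3 dimmer LILRA5 probe sets 1 was at -0.03 and the others at 0.20 and 0.30, none called over all probe sets.

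Of the inhibitory LILRB genes 3 were measured, and limma called 0 of them, with 1, LILRB1, at an unadjusted p under 0.05. LILRB1, which binds HLA class I, averaged 7.12 ± 0.03 in CA and 7.28 ± 0.12 in DMSO (SD, n = 3 each), a change of -0.16 (95% confidence interval -0.32 to -0.00, adjusted p = 0.192). LILRB2, a related HLA class I receptor, changed by -0.07 (-0.24 to 0.09). LILRB3, another inhibitory member, changed by 0.00 (-0.15 to 0.15). Each of these 3 genes was measured by _x_at probe sets only.

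LAIR1, an inhibitory receptor for collagen, was at 10.48, 10.50 and 10.53 in CA, against 10.36, 10.31 and 10.37 in DMSO. The CA values were all higher by a small margin, and the log2 change was 0.15 (SE 0.04, adjusted p = 0.0477). With any 1 of the 6 arrays left out it was no longer called (CA replicate 1, 2 or 3, DMSO replicate 1, 2 or 3; adjusted p of 0.0902 to 0.137). Its other probe set was at 0.03.

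In the CD300 family, whose members bind lipids of cell membranes, 1 of 3 measured genes rose. The inhibitory receptor CD300A was at 8.57, 8.54 and 8.46 in CA, against 8.36, 8.33 and 8.24 in DMSO. The groups did not overlap, with a log2 change of 0.22 (SE 0.05, adjusted p = 0.0418), and the call was lost with any 1 of the 6 arrays left out (adjusted p of 0.0607 to 0.123). A second probe set was at 0.20 and the dimmest at -0.03. CD300C, an activating member, changed by -0.01 (95% confidence interval -0.17 to 0.15) and CD300LF, an inhibitory one, by -0.09 (-0.20 to 0.02), neither called.

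**Figure D3:**
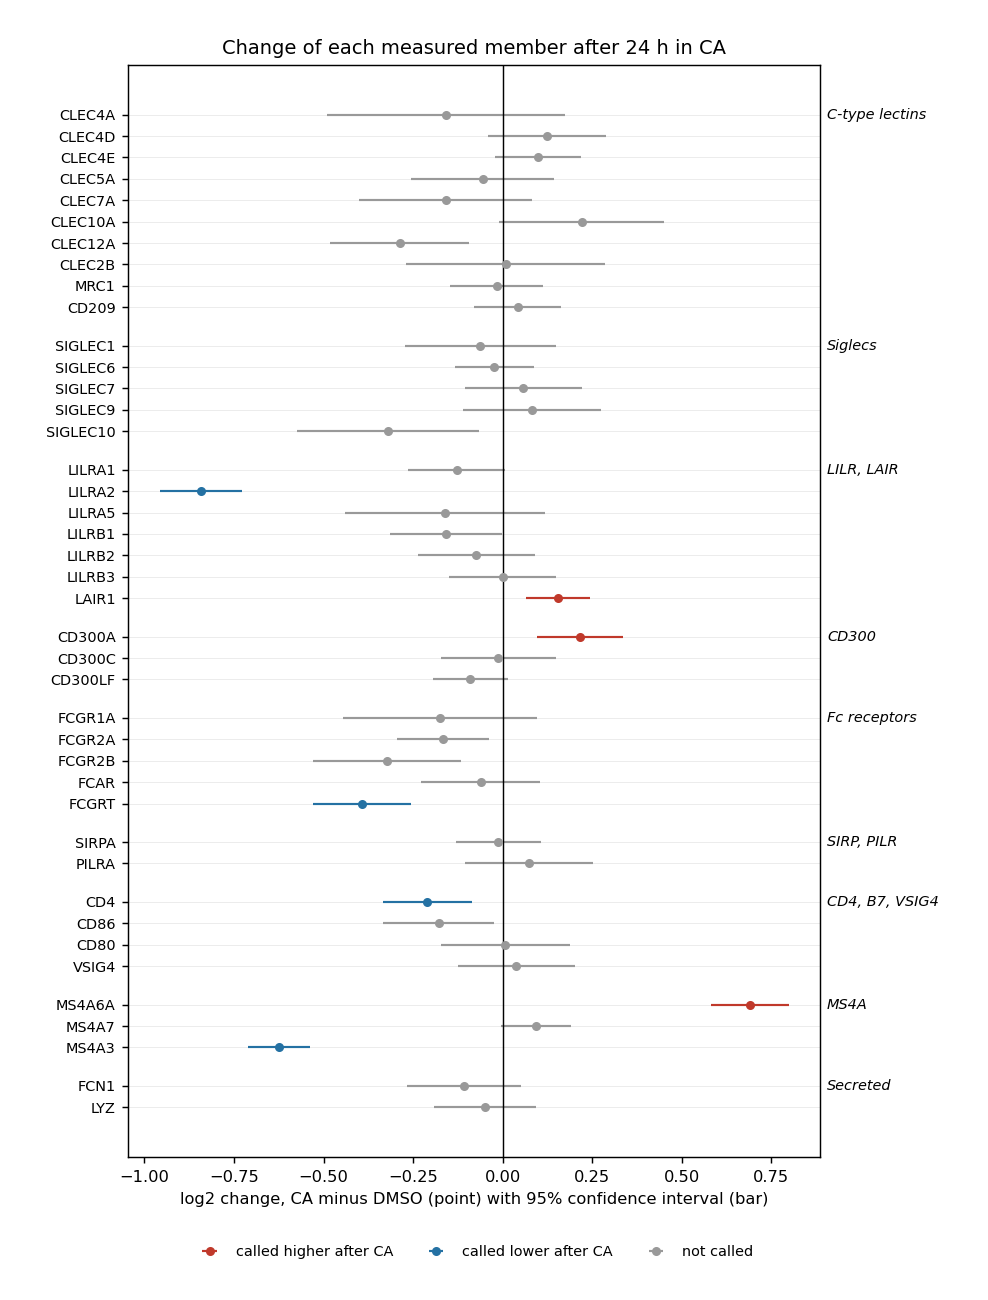
Log2 change, CA minus DMSO (horizontal axis, point with 95% confidence interval from limma), of the 41 measured members by family, with called rises in red, called falls in blue and the rest in grey. Only MS4A6A, LILRA2 and MS4A3 changed by more than 0.5 in size, and all 5 Fc receptors lie left of 0 on their representative probe sets.

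All 5 Fc receptor genes had a negative change on their representative probe set, with a median of -0.18, but 1 was called. FCGRT, which returns IgG and albumin to the cell surface and so spares them from degradation, was at 7.03, 7.08 and 6.99 in CA, against 7.39, 7.53 and 7.37 in DMSO. The CA values were all lower, with a log2 change of -0.39 (SE 0.06, adjusted p = 0.00786), on its single probe set. The call was kept with each of the 6 arrays left out in turn (adjusted p of 0.0176 to 0.0361).

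The IgG receptors FCGR2A, which activates, and FCGR2B, which inhibits, also had all CA values below the DMSO values, without a call. FCGR2A was at 8.10, 8.10 and 7.99 in CA, against 8.18, 8.22 and 8.30 in DMSO, a change of -0.17 (95% confidence interval -0.29 to -0.04, adjusted p = 0.106). FCGR2B was at 7.42, 7.19 and 7.20 in CA, against 7.49, 7.72 and 7.55 in DMSO, a change of -0.32 (-0.53 to -0.12, adjusted p = 0.0630). Without CA replicate 1 FCGR2B was called (adjusted p = 0.0434). Their near-identical neighbour FCGR2C, not among the 44, fell (-0.28, adjusted p = 0.0167) on 1 of its 3 probe sets, and called only without CA replicate 1 or DMSO replicate 1 among fits with 1 array left out. Probes of these genes may bind each other's transcripts.

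For FCGR1A, the high-affinity IgG receptor, the choice of probe set decided the level. The probe set given to FCGR1A alone was dim, at 4.10, 3.83 and 3.68 in CA, against 4.03, 3.94 and 4.17 in DMSO (-0.18, 95% confidence interval -0.45 to 0.10). A probe set shared between FCGR1A and its pseudogenes FCGR1BP and FCGR1CP, left out by the rule, was at 9.35, 9.29 and 9.30 in CA, against 9.66, 9.68 and 9.68 in DMSO. In a limma fit over 54613 probe sets, chosen after seeing the data, this shared probe set was lower by 0.36 (log2 change -0.36, SE 0.05, adjusted p = 0.00633). The probe set given to FCGR1BP alone was at 9.79 ± 0.05 in CA and 9.91 ± 0.04 in DMSO (SD, n = 3 each; -0.12, adjusted p = 0.149). Which of the genes these signals come from cannot be told apart. FCAR, the IgA receptor, was below the array median (-0.06, -0.23 to 0.10). Its direction depended on the probe set, with the dimmer ones at -0.155, 0.021, 0.045 and 0.073, none called over all probe sets.

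Among the C-type lectins, receptors for sugars and for dying cells, limma called 0 of 10 genes, with 1 at an unadjusted p under 0.05, and 8 of the 10 were at or below the array median in DMSO. CLEC4E, which senses mycobacterial glycolipid, averaged 6.39 ± 0.06 in CA and 6.29 ± 0.06 in DMSO (SD, n = 3 each), a change of 0.10 (95% confidence interval -0.02 to 0.22). Its other probe set was at 3.71 in CA and 3.76 in DMSO. CD209, a dendritic cell lectin, was at 6.76 ± 0.04 in CA and 6.72 ± 0.07 in DMSO (0.04, -0.08 to 0.16). CLEC12A, an inhibitory lectin used as a marker of leukaemic blasts, was dim on all 3 of its probe sets. Its representative was at 3.74, 3.91 and 3.64 in CA, against 4.12, 4.08 and 3.96 in DMSO (-0.29, -0.48 to -0.10, adjusted p = 0.0731), and it was called only without CA replicate 2 (adjusted p = 0.0392). CLEC4A, CLEC4D, CLEC5A, CLEC7A, CLEC10A, CLEC2B and the mannose receptor MRC1 were likewise at or below the line, with changes of -0.16 to 0.22. A dimmer probe set of CD209 was at -0.17 and one of CLEC7A at 0.21, against -0.16 for the CLEC7A representative, all uncalled.

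Siglecs bind sialic acid and most are inhibitory, and limma called 0 of the 5 measured, with 1 at an unadjusted p under 0.05. SIGLEC10 was at 6.20, 6.20 and 5.90 in CA, against 6.31, 6.38 and 6.57 in DMSO. All CA values were lower, but their spread was wide (-0.32, 95% confidence interval -0.57 to -0.07, adjusted p = 0.114). SIGLEC7, a receptor also of NK cells, was at 6.50 ± 0.12 in CA and 6.44 ± 0.06 in DMSO (0.06, -0.11 to 0.22). SIGLEC1, the macrophage sialoadhesin, SIGLEC6 and SIGLEC9 were below the array median, with changes of -0.06 to 0.08.

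CD4, the HLA class II co-receptor that monocytes carry as well as T cells, was at 7.02, 7.01 and 7.03 in CA, against 7.26, 7.30 and 7.13 in DMSO. The CA values were all lower, with a log2 change of -0.21 (SE 0.05, adjusted p = 0.0489). With CA replicate 1, 2 or 3 or DMSO replicate 1 or 2 left out it was not called (adjusted p up to 0.133), while without DMSO replicate 3 it was (0.0290). CD86, a costimulatory ligand of CD28, was at 5.86 ± 0.08 in CA and 6.04 ± 0.10 in DMSO (SD, n = 3 each), a change of -0.18 (95% confidence interval -0.33 to -0.03, adjusted p = 0.142). A dimmer CD86 probe set fell by 0.58 (adjusted p = 0.0259 over all probe sets), and the third was at -0.04. CD80, the related CD28 ligand, and VSIG4, a complement receptor of macrophages, were below the array median, at 0.01 and 0.04.

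SIRPA, the inhibitory receptor for CD47, was bright and not called, at 9.95, 9.87 and 10.00 in CA, against 9.97, 9.89 and 9.99 in DMSO (-0.01, 95% confidence interval -0.13 to 0.11). LYZ, which encodes lysozyme, was near the top of the scale, at 13.33 ± 0.05 in CA and 13.38 ± 0.10 in DMSO (SD, n = 3 each; -0.05, -0.19 to 0.09). PILRA, an inhibitory receptor, and the secreted lectin FCN1 were below the array median, at 0.07 and -0.11.

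**Figure D4:**
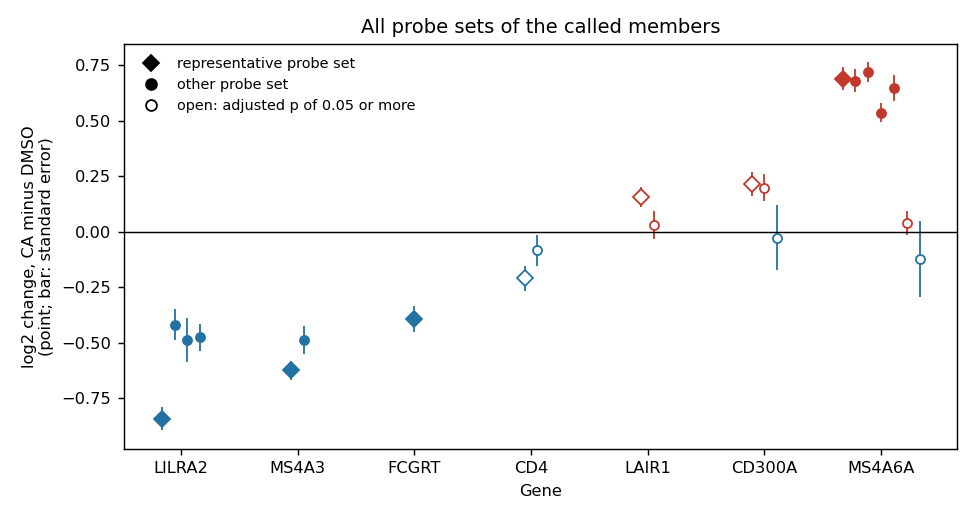
Log2 change, CA minus DMSO (vertical axis, point with standard error), of every probe set of the 7 called members, with the representative as a diamond, filled symbols for an adjusted p under 0.05 over all probe sets and open symbols for the rest. All probe sets of LILRA2 and MS4A3 and 5 of 7 of MS4A6A are filled, while those of CD4, LAIR1 and CD300A are open and were called only in the test over genes.

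Related genes that are not among the 44 were taken from lists by family. For the counts of this paragraph and the next, 6.64% of all genes were called higher, 4.49% lower and 11.1% in either direction. Of 22 other C-type lectins 1 rose and 1 fell. Thrombomodulin (THBD) was at 9.52 ± 0.06 in CA and 9.05 ± 0.08 in DMSO (0.47, adjusted p = 0.00359), and CLEC11A, a secreted growth factor for blood progenitors, at 11.29 ± 0.04 and 11.81 ± 0.04 (-0.51, adjusted p = 0.000757; SD, n = 3 each). Limma called 0 of 7 other Siglecs, with 0 at an unadjusted p under 0.05. Of 15 other LILR, LAIR, CD300 and related receptors 2 rose and 1 fell. LAIR2, a secreted relative of LAIR1, rose (0.52, adjusted p = 0.00366) to 5.56 ± 0.01 in CA, against 5.04 ± 0.11 in DMSO, both below the array median. PECAM1, an adhesion receptor with inhibitory motifs, rose (0.33), called on 1 of its 5 probe sets. TREM2, a lipid receptor that signals through TYROBP, was at 6.37, 6.29 and 6.20 in CA, against 6.77, 6.55 and 6.83 in DMSO (-0.43, adjusted p = 0.0235). Its call was lost without CA replicate 2 or 3 or DMSO replicate 1 or 3 (adjusted p up to 0.0805).

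Of 15 other Fc receptors 1 rose, FCRLB (0.20, adjusted p = 0.0401), and 1 fell, FCGR2C. FCRLB kept its call only without CA replicate 2 among fits with 1 array left out (adjusted p of 0.0483 to 0.121). Of 20 other SIRP, PILR, MS4A, ficolin and costimulatory genes 2 rose, MS4A4A and ICOSLG (0.24, adjusted p = 0.0443), and 0 fell. ICOSLG, the ligand of ICOS, lost its call with any 1 of the 6 arrays left out (adjusted p of 0.0652 to 0.124). CD47, the ligand of SIRPA, was not called (0.08, 95% confidence interval -0.03 to 0.19).

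Inside the cell these receptors couple to adaptors, kinases and phosphatases. Of 34 measured signalling partners 9 rose and 5 fell (41.2% called, against 11.1% of all genes), but 31 of the 34 were above the array median, where 17.0% of all genes were called. The median log2 change of the list was 0.02. This list was written with results of these data known, and the difference from the receptors was not tested.

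The adaptors TYROBP and HCST, encoded side by side on chromosome 19, both fell. TYROBP, which carries an activating tyrosine motif, was at 8.34, 8.42 and 8.40 in CA, against 9.12, 9.16 and 9.15 in DMSO (-0.76, SE 0.04, adjusted p = 0.000119). HCST, an adaptor with no SYK-binding motif, was at 8.74, 8.89 and 8.68 in CA, against 9.69, 9.60 and 9.67 in DMSO (-0.88, SE 0.06, adjusted p = 0.000447). In both genes the groups lay well apart. FCER1G, the adaptor of LILRA2 and of several Fc receptors, was below the array median, at 4.77 in CA and 4.78 in DMSO (-0.01), and was not called.

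FYN (-0.48, adjusted p = 0.0271), VAV1 (-0.385, adjusted p = 0.0102) and CBL (-0.18, adjusted p = 0.0235) were called lower as well. In the test over all probe sets, 1 of the 5 FYN probe sets and 0 of the 5 CBL probe sets were called lower. The remaining 9 called partners rose. Among them FGR, a Src family kinase of myeloid cells, was at 7.80, 7.81 and 7.78 in CA, against 7.11, 6.91 and 6.82 in DMSO (0.85, SE 0.07, adjusted p = 0.00109). The adaptor BLNK, which links SYK to phospholipase C, was at 8.50, 8.65 and 8.64 in CA, against 7.72, 7.79 and 7.73 in DMSO (0.85, SE 0.05, adjusted p = 0.000240). The calcium-regulated factors NFATC1 (0.72) and NFATC2 (0.60) rose as well, although NFATC1 was at 0.00 (adjusted p = 0.973) without the _x_at and _s_at probe sets. SYK itself changed by -0.07 (95% confidence interval -0.22 to 0.09), and LYN, the kinase that phosphorylates many of these receptors, by -0.12 (-0.22 to -0.02), neither called. Of the phosphatases of the inhibitory receptors, chosen after their values were seen, PTPN6 rose (0.32, adjusted p = 0.00700), INPP5D rose (0.22, adjusted p = 0.0286) and PTPN11 was not called (-0.08). Of the 3 INPP5D probe sets, 0 were called in the test over all probe sets.

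**Figure D5:**
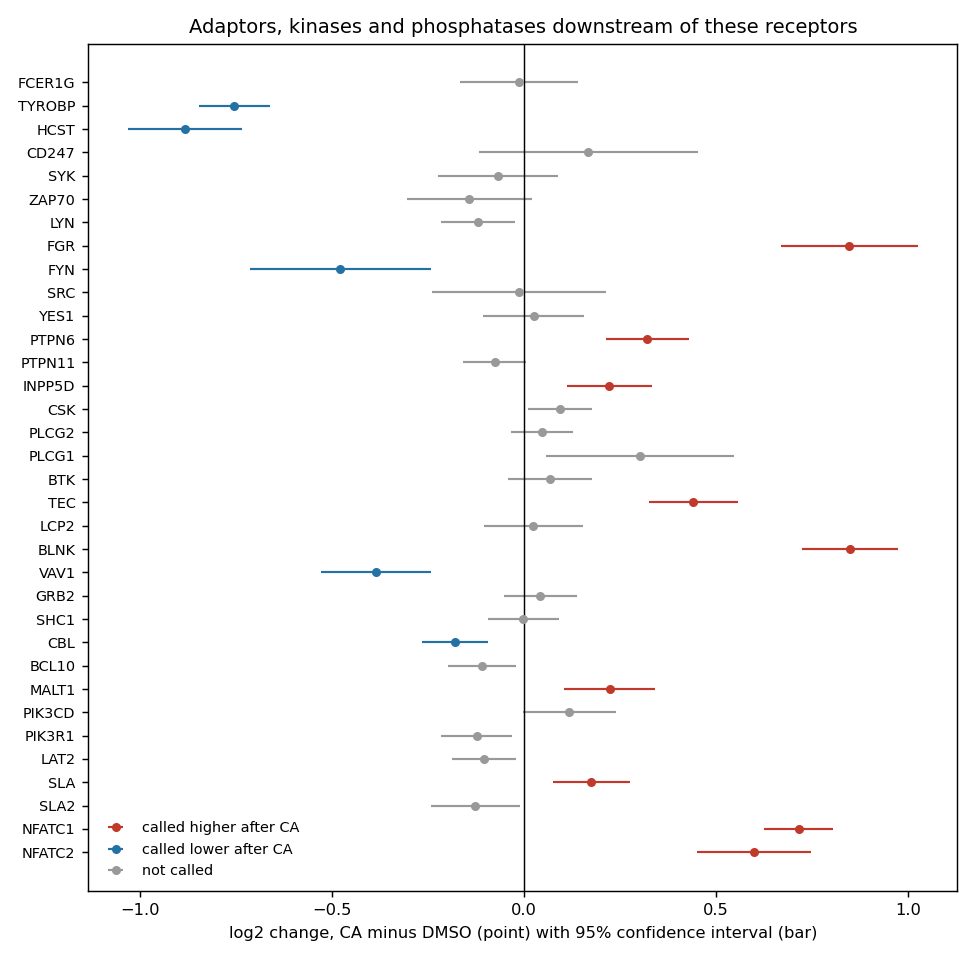
Log2 change, CA minus DMSO (horizontal axis, point with 95% confidence interval), of the 34 measured adaptors, kinases, phosphatases and factors that act downstream of these receptors. HCST (-0.88) and TYROBP (-0.76) lie farthest left and BLNK (0.85) and FGR (0.85) farthest right, with SYK and FCER1G near 0.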

How the data were processed

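Per the submitters' processing notes, RMA in the affy package gave the deposited log2 intensities, 1 per probe set and array. Their versions, and which arrays were normalised together, are not stated by the sources at hand. RMA compresses large fold changes. The 6 arrays had medians of 5.59 to 5.62. Arrays have no sequencing depth, and their number limits the precision.

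Of 54675 probe sets, 62 were controls, 41091 had 1 gene symbol, 1801 had several and named no gene, and 11721 were unnamed here. Of those with 1 symbol 41037 matched a RefSeq table of GRCh38.p14 by Entrez number. The probe set of highest mean stood for each of 19775 genes, with no filter on level. Limma 3.58.1 in R 4.3.3 (lmFit, eBayes with defaults) compared the 3 CA with the 3 DMSO arrays, 2-sided, with Benjamini-Hochberg adjustment over all genes and a call at an adjusted p under 0.05. Every adjusted p is from limma. The p-values reflect only how these wells differ among themselves, a spread that may be technical.

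The members, lists and tests were chosen with earlier results of these data known. Every member was accounted for, with values per array for those called, and from each related list up to 6 called genes of largest change were named. Of the signalling partners, the other called falls and the called phosphatases were named as well. Alternatives varied the probe set, filter, scaling, moderation, weights, replicate block, threshold and arrays.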

Additional observations from a re-analysis of the deposited data

How the results depend on the processing

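LILRA2, MS4A3 and MS4A6A kept their call and direction in each of the 12 other fits and with each of the 6 arrays left out, and FCGRT in each of the 11 fits that measured it and with each array left out. The count of genes called higher was 3, and it was 1 (MS4A6A) on the mean of all probe sets, on the probe set of largest variance, without the _x_at and _s_at probe sets, in a test per probe set, with the replicate block, at an adjusted p under 0.01, with at least 1.2-fold change, and with any 1 array left out (1 to 1). The count called lower was 4, and it was 2 of 31 measured members without the _x_at and _s_at probe sets, 7 among genes whose mean reached 6, 7 with an intensity trend and robust moderation, and 3 to 4 with 1 array left out. The members above the array median were 23, and 14 by the probe set of largest variance and 13 without the _x_at and _s_at probe sets. Against the median over genes, 18 members were above. CD300A turned to -0.027, uncalled, by the probe set of largest variance and without the _x_at and _s_at probe sets, and FCGR2C to 0.091, uncalled, without the _x_at and _s_at probe sets. On the mean of all probe sets LILRA1 was at 0.029 and LILRA5 at 0.075, and by the probe set of largest variance at 0.188 and 0.297, all uncalled. The settings under which these directions turned use other probes by construction. Among members that were not called, the direction also turned in 23 results with 1 array left out. CLEC5A, for example, was at 0.026 and MRC1 at 0.028 without DMSO replicate 1. CLEC2B was at -0.002 with array weights. Other settings changed the filter, moderation, block, threshold or arrays, and the cause of the shifts was not tested.

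Over all genes 1314 were higher and 888 lower, against 2119 and 1695 with an intensity trend and robust moderation, 1914 and 1539 among genes whose mean reached 6 (10997 genes), 841 and 570 by the probe set of largest variance, 770 and 566 without the _x_at and _s_at probe sets, 716 and 402 with the replicate block, and 721 to 848 and 435 to 495 with 1 array left out. Deviations of same-numbered arrays correlated at 0.02 to 0.03, and no CA array correlated best with the DMSO array of its number. Deviations from means of 3 arrays cannot exclude a pairing of wells, so both fits are given. The block left 1 member higher and 3 lower. A second quantile normalization gave 1181 higher and 1108 lower (51.6% of calls higher, against 59.7%). No scaling moved the median of all genes by more than 0.1. With 3 arrays a group, small changes such as those of LAIR1, CD300A and CD4 lie at the limit of what was called.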
